A study of Mus musculus with 4 samples.

Results

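The collagen gene family was examined in RNA from mouse dorsal root ganglia, the clusters of sensory neuron cell bodies beside the spinal cord. Its members were chosen by name, as every row of the deposited matrix whose gene symbol is Col, a number, a and a number. They were 33 of the 14405 rows. The annotation lists 44 such genes, and the other 11 (Col4a3, Col4a4, Col4a6, Col6a4, Col7a1, Col9a1, Col10a1, Col17a1, Col19a1, Col22a1 and Col24a1) were not analysed here. Of the 33 members, 7 were fibrillar chains outside cartilage, 5 were cartilage chains, 3 were type IV chains and 2 were other chains of the basement membrane zone. A further 5 were type VI chains, 4 were FACIT chains outside cartilage, 2 were type VIII network chains, 3 were transmembrane chains and 2 (Col26a1 and Col28a1) fell in no class.

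Bulk RNA was sequenced from 2 mutant and 2 wild type samples, all from mice aged 10 weeks and of mixed strain. The mutant genotype was Prdm12-/Fl; AvilCreERT2/+, that is, one Prdm12 allele deleted, the other flanked by loxP sites, and an inducible Cre under Avil. The controls are labelled as wild type, with no Cre or floxed allele named. Prdm12 encodes a transcription factor needed for pain-sensing neurons to form, and Avil is active mainly in sensory neurons. The labels do not state when or how Cre was induced, nor whether a sample was 1 animal or a pool. The p-values therefore set each difference against a spread between these samples, partly estimated from other genes, and that spread can be partly technical. Values are FPKM, which counts fragments relative to the length of a transcript and the size of a library, so levels of different chains can be set side by side. The sequencing depth is unknown. Prdm12 stood at 1.05 and 1.5 FPKM in the mutants, against 7.58 and 10.7 FPKM in the wild types, a difference in the direction of the labels (log2 difference -2.14, limma adjusted p = 0.180). The summed level of 8 neuron markers was 3868 and 6581 FPKM in the mutants, against 3532 and 4911 FPKM in the wild types. That of 6 satellite glia markers was 5501 and 5588 FPKM in the mutants, against 5380 and 6472 FPKM in the wild types. None of these markers was at 0 in any sample. Most of the glial sum was Apoe, at 4315 and 4787 FPKM in the mutants, against 4089 and 5474 FPKM in the wild types. The glial markers went different ways, so their sum does not speak for each of them. In each mutant, Kcnj10 stood above either wild type, and Glul and Gja1 stood below either. The groups overlapped for Fabp7, Apoe and Cadm2.

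Collagens are secreted or membrane proteins in which chains wind into a helix of repeated glycine triplets. Fibrillar chains form the rope-like fibres of connective tissue, type IV chains form the sheet-like network of basement membranes, and FACIT chains decorate the surface of fibres. In a ganglion, fibres lie in the capsule and between axons and are laid down mainly by fibroblasts. Schwann cells, satellite glia and vessels rest on basement membranes.

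Differences are of log2(FPKM + 1), the mutant mean less the wild type mean. This scale understates changes of chains with few FPKM. Genes were tested if either group averaged 1 FPKM or more. Across the family, 5 members were higher and 1 was lower at an unadjusted p under 0.05, where 1.35% of the 14040 genes tested were higher and 3.01% were lower. Col25a1, the lower one, passed the filter only through the wild types, and Col11a2, 1 of the 5 higher, only through the mutants. After adjustment over all genes with limma, 0 of 33 collagens passed 0.05, as did 0 of all genes tested (0.0%). The count of higher members at an unadjusted p under 0.05 was 2 without mutant 1 or wild type 1 and 0 without mutant 2 or wild type 2. In 8 collagens both mutants were above both wild types and in 1 both were below, beside 12.5% and 19.6% of all genes. Those shares of all genes also stand beside each later count without overlap. The median log2 difference was 0.02 over the 33 collagens and 0.00 over all genes tested. With 2 samples in each group an exact permutation test of a single chain cannot give a p below 0.333.

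**Figure D1:**
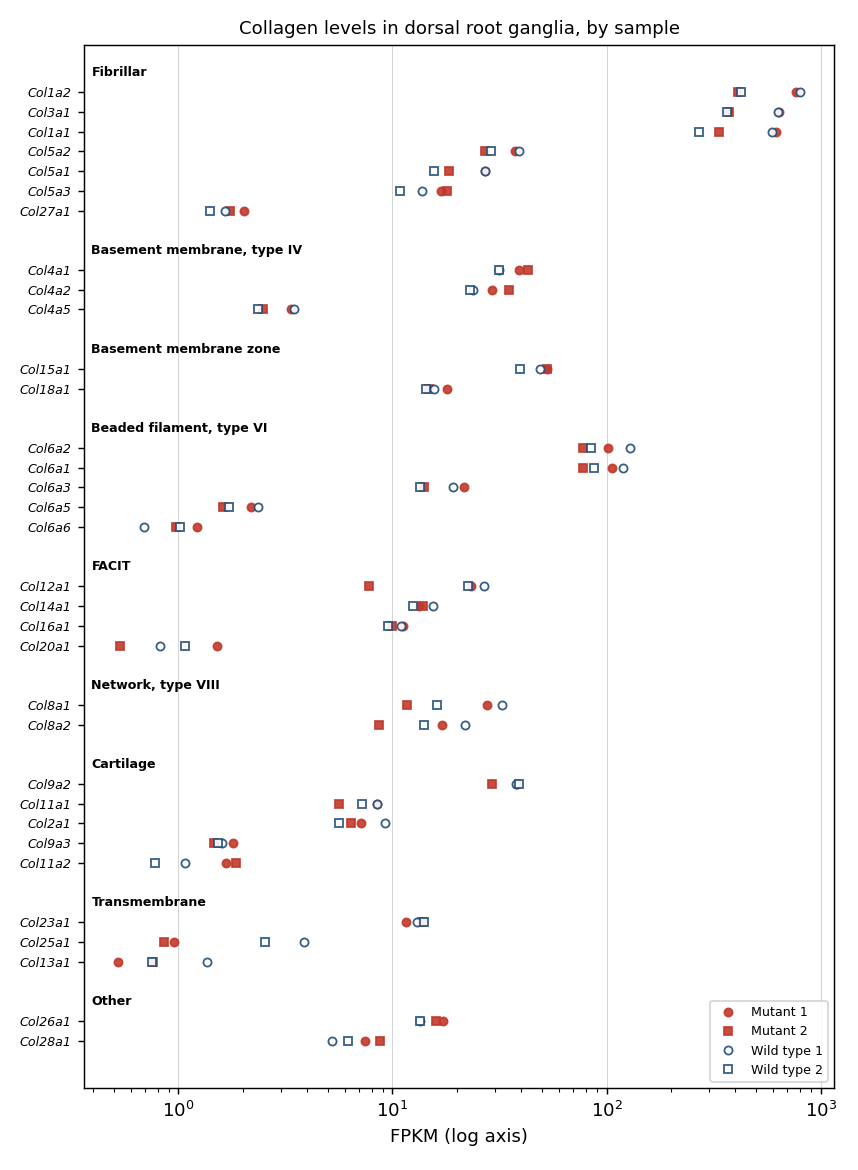
Level of each of the 33 collagens in each sample, in FPKM on a log axis, grouped by structural class. Filled red marks are the 2 mutants and open blue marks the 2 wild types, with circles for sample 1 and squares for sample 2. For Col1a1, Col1a2 and Col3a1 the circles of both genotypes lie together to the right of the squares.

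The chain that stood furthest apart between the genotypes was Col25a1, a transmembrane collagen of neurons whose shed outer part was found in amyloid plaques and which mouse motor axons need to innervate muscle. It was at 0.952 and 0.857 FPKM in the mutants, against 3.87 and 2.55 FPKM in the wild types. Both mutants were below both wild types, and the means were 0.905 ± 0.0670 and 3.21 ± 0.935 FPKM (SD, n = 2 each), 3.55-fold lower in the mutants. The log2 difference was -1.13 (standard error 0.210, 95% interval -1.66 to -0.60, limma adjusted p = 0.493, unadjusted p = 0.00236). Because Col25a1 passed the filter of 1 FPKM only through the wild types, this interval and these p-values are descriptions only. It was the single collagen in the authors' deposited table, which holds 150 genes, 149 of them rows of the matrix (1.03% of its rows). Its log2 change in the authors' deposited table is -1.83, at q = 0.00742. The group FPKM given there, 3.21 and 0.905, equal the means above, so this call is not separate from these data.

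All 8 neuron markers had a positive log2 difference. Without overlap 1 was higher and 0 were lower, beside 12.5% and 19.6% of all genes. In these bulk samples, fewer cells of a type and less RNA per cell cannot be told apart.

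The RefSeq start of Col25a1 is shown because the gene is the one collagen called by the authors. RefSeq promoter windows were at hand for 26 of the 33 members. The 250 bases before the RefSeq start of Col25a1, on the plus strand of GRCm38 at chr3:130180595-130180844, hold a run of 16 bases in 2 copies, printed in capitals. In GENCODE M21 the gene begins further upstream, at chr3:130131501-130599877, so the window lies inside the gene by that annotation.

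Col25a1: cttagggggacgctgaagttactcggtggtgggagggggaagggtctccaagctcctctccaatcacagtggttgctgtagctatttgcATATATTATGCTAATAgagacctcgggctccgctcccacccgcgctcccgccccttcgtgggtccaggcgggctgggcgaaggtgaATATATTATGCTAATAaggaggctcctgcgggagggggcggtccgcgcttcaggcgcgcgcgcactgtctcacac

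The copies begin 161 and 75 bases before the RefSeq start. The run was found on either strand in 1 of 32851 promoter windows of that length (0.00304%), the window of Col25a1 itself. It was picked from that window, so this hit was certain and the share does not measure how unusual the repeat is. This describes the letters only and says nothing of a factor that binds there.

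The other transmembrane chains gave smaller differences. Col23a1 was the most abundant of them, at 11.6 and 13.8 FPKM in the mutants, against 13.0 and 14.0 FPKM in the wild types, with overlapping samples (log2 difference -0.09, 95% interval -0.48 to 0.30). Col13a1, which sits at the neuromuscular junction, was at 0.522 and 0.760 FPKM in the mutants, against 1.36 and 0.756 FPKM in the wild types. Wild type 1 alone stood high for Col13a1, and the groups overlapped (log2 difference -0.32, limma adjusted p = 0.994).

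Among basement membrane collagens, the common type IV chains Col4a1 and Col4a2 were above both wild types in each mutant. These chains make up the type IV network of most basement membranes. Col4a1 was at 38.9 and 42.9 FPKM in the mutants, against 31.5 and 31.3 FPKM in the wild types, 1.30-fold by the means (log2 difference 0.37, standard error 0.147, unadjusted p = 0.05). Col4a2 was at 29.3 and 34.9 FPKM in the mutants, against 23.8 and 23.1 FPKM in the wild types, 1.37-fold (log2 difference 0.43, standard error 0.158, unadjusted p = 0.0377). Neither passed over all genes (limma adjusted p = 0.994 for each). With any 1 sample left out, the difference stayed between 0.30 and 0.44 for Col4a1 and between 0.31 and 0.55 for Col4a2.

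These genes lie head to head on chromosome 8, Col4a1 on the minus strand at chr8:11198423-11312826 and Col4a2 on the plus strand at chr8:11312805-11449287 (GENCODE M21, GRCm38). The annotated genes overlap at their starts by 22 bases, shown because both genes cover that stretch. Its ends are the annotated starts, chr8:11312826 for Col4a1 and chr8:11312805 for Col4a2. Its letters are given on the Col4a2 strand.

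Col4a1 and Col4a2 shared start: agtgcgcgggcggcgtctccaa

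The labels do not state whether the libraries keep strand, so reads within those 22 bases cannot be assigned to either gene. The level of Col4a1 over that of Col4a2 was 1.33 and 1.23 in the mutants, against 1.33 and 1.36 in the wild types, so the ratio lay between 1.23 and 1.36 in all 4 samples. Col4a5, a chain of the specialised type IV networks, was lower than either at 3.36 and 2.49 FPKM in the mutants, against 3.48 and 2.35 FPKM in the wild types. Its groups overlapped, with a log2 difference of 0.01 (95% interval -0.54 to 0.56).

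Col15a1, a collagen of the outer basement membrane zone of nerve, muscle and vessel, was at 52.4 and 52.5 FPKM in the mutants, against 48.7 and 39.6 FPKM in the wild types. Both mutants were higher, by 1.19-fold in the means (log2 difference 0.25, 95% interval -0.17 to 0.67). Col18a1, the source of the endostatin fragment, was at 17.9 and 14.9 FPKM in the mutants, against 15.6 and 14.3 FPKM in the wild types, with overlap (log2 difference 0.12).

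Other basement membrane genes showed no common direction beside Col4a1 and Col4a2. The 14 genes tested were those of laminins, nidogens and proteoglycans, with Npnt and Pxdn. Of these 14, 2 (Lamb1 and Pxdn) were higher and 3 were lower without overlap, beside 12.5% and 19.6% of all genes. Log2 differences were positive in 5 and negative in 9. Their median log2 difference was -0.05. The laminin beta 2 gene Lamb2 was at 67.6 and 44.3 FPKM in the mutants, against 77.4 and 64.3 FPKM in the wild types. The nidogen gene Nid1, whose product links laminin to type IV collagen, was at 59.7 and 48.0 FPKM in the mutants, against 63.9 and 56.7 FPKM in the wild types.

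Some chains outside the type IV group were also above both wild types in each mutant. Col5a3, a type V chain known from rat Schwann cells, was at 16.9 and 18.0 FPKM in the mutants, against 13.7 and 10.9 FPKM in the wild types. That is 1.42-fold by the means (log2 difference 0.48, standard error 0.168, unadjusted p = 0.0322). Col28a1, a collagen found around Schwann cells of mouse peripheral nerve, was at 7.46 and 8.73 FPKM in the mutants, against 5.21 and 6.22 FPKM in the wild types, also 1.42-fold (log2 difference 0.44, standard error 0.163, unadjusted p = 0.0395). Col26a1, first described in developing gonads, was at 17.3 and 15.9 FPKM in the mutants, against 13.4 and 13.5 FPKM in the wild types, 1.23-fold (log2 difference 0.28). Col27a1, a minor fibrillar chain, was at 2.03 and 1.75 FPKM in the mutants, against 1.64 and 1.40 FPKM in the wild types (log2 difference 0.20). For these 4 chains limma's adjusted p was 0.994.

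All 10 Schwann cell and myelin markers had a positive log2 difference, with a median of 0.64, and 6 were higher and 0 lower without overlap, with none at 0 FPKM. Their summed level was 10369 and 21630 FPKM in the mutants, against 10508 and 8414 FPKM in the wild types, so mutant 2 stood far above the other samples and mutant 1 did not. Without mutant 2, the log2 difference was 0.30 for Col4a1, 0.31 for Col4a2, 0.44 for Col5a3 and 0.34 for Col28a1. Without mutant 2 these 4 differences were smaller and still positive. The other higher chains without overlap went different ways: Col11a2 fell from 0.52 to 0.48 and Col15a1 stayed at 0.25. Col26a1 rose from 0.28 to 0.34 and Col27a1 from 0.20 to 0.27. The part of Schwann cell content in any of these chains was not tested. The 7 endothelial markers summed to 106 and 106 FPKM in the mutants, against 112 and 123 FPKM in the wild types, and the 7 mural cell markers to 241 and 193 FPKM in the mutants, against 197 and 252 FPKM in the wild types, with 0 higher without overlap in either list and 2 endothelial and 1 mural marker lower.

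**Figure D2:**
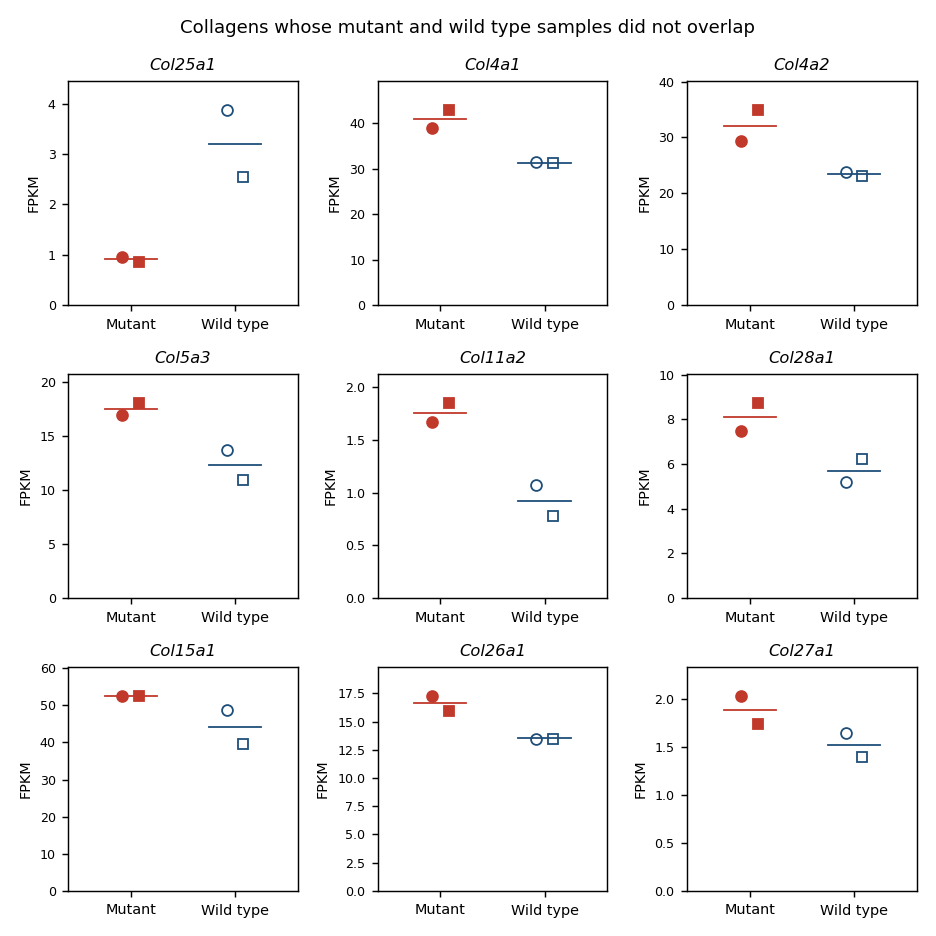
FPKM of the 9 collagens whose mutant samples (filled red) lay all on one side of the wild type samples (open blue), with circles for sample 1, squares for sample 2 and a line at each group mean. Col25a1 was lower in both mutants, and the other 8 were higher.

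The fibrillar chains made up most collagen transcript, and the 3 most abundant of them differed more between the samples of a genotype than between genotypes. Col1a2, Col3a1 and Col1a1, which make the types I and III fibres of connective tissue, ranked 166, 209 and 231 among all genes of the matrix by mean level. The summed level of these 3 chains was 2027 and 1119 FPKM in the mutants, against 2026 and 1062 FPKM in the wild types. Mutant 1 and wild type 1 were thus nearly level with each other, as were mutant 2 and wild type 2. All 33 collagens together took 0.424% and 0.239% of the summed FPKM in the mutants, against 0.436% and 0.235% in the wild types.

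Col1a1 was at 619 and 335 FPKM in the mutants, against 593 and 269 FPKM in the wild types, or 477 ± 201 and 431 ± 229 FPKM (SD, n = 2 each). Col1a2 was at 769 and 411 FPKM in the mutants, against 802 and 426 FPKM in the wild types. Col3a1 was at 640 and 374 FPKM in the mutants, against 631 and 367 FPKM in the wild types. Sample 1 exceeded sample 2 by 1.85-fold in the mutants and 2.2-fold in the wild types for Col1a1, by 1.87-fold and 1.88-fold for Col1a2, and by 1.71-fold and 1.72-fold for Col3a1. The log2 differences between genotypes were 0.19 (95% interval -0.97 to 1.35), -0.06 (-1.11 to 0.99) and 0.02 (-0.90 to 0.94), and all 3 intervals span differences in either direction. With 1 sample left out, the difference for Col1a1 ran from -0.38 without wild type 2 to 0.76 without wild type 1.

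The chains of the type I trimer, which holds more alpha 1 than alpha 2 chains as protein, were compared as a ratio within each sample. Col1a1 over Col1a2 was 0.805 and 0.815 in the mutants, against 0.740 and 0.632 in the wild types, higher in both mutants. Col3a1 over Col1a2 was 0.832 and 0.910 in the mutants, against 0.787 and 0.863 in the wild types, with overlap. The ratios are descriptions, with no test.

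The type V chains Col5a1 and Col5a2, which set the width of type I fibres, varied in the same direction at lower levels. Col5a2 was at 37.5 and 26.9 FPKM in the mutants, against 38.9 and 28.9 FPKM in the wild types (log2 difference -0.08). Col5a1 was at 26.9 and 18.5 FPKM in the mutants, against 27.1 and 15.6 FPKM in the wild types (log2 difference 0.11). Col5a3 did not share this pattern, so that Col5a3 over Col5a1 was 0.628 and 0.977 in the mutants, against 0.506 and 0.697 in the wild types.

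Over the family, 20 of the 33 collagens were higher in sample 1 than in sample 2 of both genotypes, where 25.8% of all genes tested were. The reverse held for 2 collagens, Col28a1 and Col23a1, where 40.3% of all genes tested did so. In 5 chains, Col1a1, Col1a2, Col3a1, Col8a1 and Col8a2, sample 1 was at least 1.5-fold above sample 2 in both genotypes. The labels do not say that a sample number marks a shared litter, day or batch, so a batch and chance variation between samples cannot be told apart.

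Markers of muscle and fat differed the opposite way between the same samples. The 8 skeletal muscle markers summed to 110 and 4208 FPKM in the mutants, against 246 and 2012 FPKM in the wild types. The 7 adipocyte markers summed to 276 and 2335 FPKM in the mutants, against 483 and 760 FPKM in the wild types. Of the markers in either list, 0 were at 0 FPKM in any sample. Their part in the collagen levels was not tested.

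**Figure D3:**
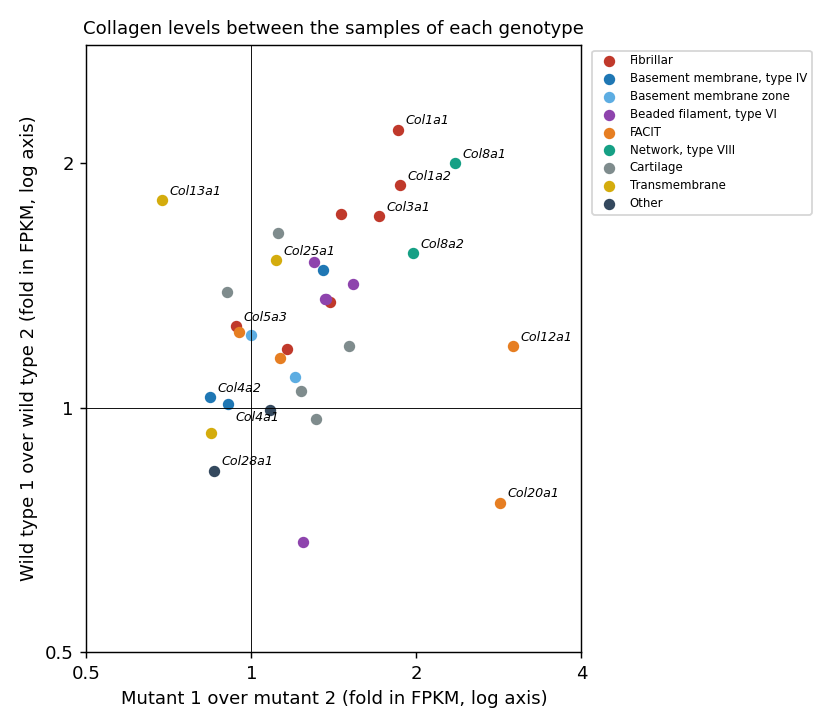
Fold difference in FPKM between the samples of 1 genotype, as mutant 1 over mutant 2 (horizontal, log axis) and wild type 1 over wild type 2 (vertical, log axis), with 1 point for each of the 33 collagens coloured by class. The 20 collagens at the upper right were higher in sample 1 of both genotypes, Col1a1 and Col8a1 among the furthest out, while Col4a1 and Col4a2 lie near the level of no difference.

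Fibroblast and meningeal markers gave another picture. Of these 15 markers 8 were lower and 0 were higher without overlap in the mutants, with a median log2 difference of -0.58 and 0 at 0 FPKM. The 8 were Ptgds, Slc22a6, Aldh1a2, Igf2, Slc6a13, Foxc1, Mgp and Clec3b. The groups overlapped for Dcn, Lum, Pdgfra, Dpt, Pi16, Gsn and Foxd1. Dcn was at 3710 and 1901 FPKM in the mutants, against 3462 and 3347 FPKM in the wild types. The summed level of all 15 was 9448 and 6778 FPKM in the mutants, against 19749 and 19697 FPKM in the wild types. Of these sums, Ptgds, a meningeal enzyme gene, made up 3201 and 3025 FPKM in the mutants, against 13098 and 13055 FPKM in the wild types. The matrix proteoglycan gene Lum, a fibroblast marker, was at 466 and 266 FPKM in the mutants, against 538 and 329 FPKM in the wild types. Lum shared the sample pattern of the fibrillar chains, but the pattern was not common to the list. Dpt was higher in sample 2 of both genotypes, Pdgfra, Gsn and Mgp in wild type 2, and Clec3b in mutant 2. The other markers were higher in sample 1 of both genotypes, to differing degrees. Of the 7 fibrillar chains, 0 were lower and 2 (Col5a3 and Col27a1) were higher without overlap, beside 19.6% and 12.5% of all genes. The part of the fibroblast and meningeal marker differences in the collagen levels was not tested. The 5 erythroid markers with a row summed to 6371 and 6500 FPKM in the mutants, against 3398 and 3189 FPKM in the wild types, and all 5 were higher without overlap. The 10 lymphocyte and neutrophil markers summed to 2836 and 2151 FPKM in the mutants, against 1415 and 2176 FPKM in the wild types, so the sums overlapped, with 7 of the 10 higher and 0 lower without overlap.

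Type VI chains form beaded filaments close to basement membranes of muscle, nerve and fat, and were the next most abundant class. Col6a1 was at 106 and 77.5 FPKM in the mutants, against 119 and 87.8 FPKM in the wild types, and Col6a2, its neighbour on chromosome 10, at 101 and 78.0 FPKM in the mutants, against 128 and 84.9 FPKM in the wild types. Samples of the groups overlapped in both, with log2 differences of -0.17 (95% interval -0.77 to 0.43) and -0.23 (-0.88 to 0.41). Col6a1 over Col6a2 was 1.05 and 0.994 in the mutants, against 0.930 and 1.03 in the wild types.

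Col6a3, the long chain of the usual type VI trimer, was at 21.6 and 14.1 FPKM in the mutants, against 19.1 and 13.5 FPKM in the wild types. Per length it was thus far below its partners, at 0.203 and 0.182 of the Col6a1 level in the mutants, against 0.160 and 0.154 in the wild types. The alternative chains Col6a5 and Col6a6 were near the floor of the matrix, from 0.692 to 2.35 FPKM over the 4 samples, with overlapping groups.

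Of the FACIT chains, Col12a1, which lies on type I fibres, differed mostly in 1 library. It was at 23.3 and 7.79 FPKM in the mutants, against 26.6 and 22.4 FPKM in the wild types, so mutant 2 stood apart from the other 3 samples. The log2 difference was -0.80 (95% interval -1.98 to 0.38), and it was -0.06 without mutant 2 and -1.53 without mutant 1. Col14a1, also on type I fibres, was at 13.2 and 13.9 FPKM in the mutants, against 15.5 and 12.5 FPKM in the wild types. Col16a1 was at 11.2 and 9.93 FPKM in the mutants, against 10.9 and 9.49 FPKM in the wild types. Their log2 differences were -0.04 and 0.05, and Col20a1, near 1 FPKM, had 0.02.

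The network-forming type VIII chains, known from vessel walls and the cornea, showed the sample pattern and lower mutant means. Col8a1 was at 27.5 and 11.7 FPKM in the mutants, against 32.4 and 16.2 FPKM in the wild types (log2 difference -0.33, 95% interval -1.54 to 0.87). Col8a2 was at 17.1 and 8.67 FPKM in the mutants, against 21.8 and 14.0 FPKM in the wild types (log2 difference -0.49, 95% interval -1.38 to 0.41). The groups overlapped in both chains, and the difference within a genotype exceeded that between them. Without mutant 1 the log2 differences were -0.92 and -0.94, and without mutant 2 they were 0.25 and -0.04.

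The cartilage chains were present at low levels, apart from Col9a2. Col9a2, a chain that coats type II fibres, was at 38.1 and 29.1 FPKM in the mutants, against 37.9 and 39.2 FPKM in the wild types (log2 difference -0.20, 95% interval -0.66 to 0.25). Its partner Col9a3 stood at 1.8 and 1.46 FPKM in the mutants, against 1.6 and 1.52 FPKM in the wild types, and Col9a2 exceeded it by 21.2-fold and 19.9-fold in the mutants, against 23.7-fold and 25.7-fold in the wild types. Col2a1, the main fibre of cartilage, was at 7.15 and 6.4 FPKM in the mutants, against 9.19 and 5.62 FPKM in the wild types (log2 difference -0.08).

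The type XI chains, which lie in the core of type II fibres, differed from each other. Col11a2 was at 1.67 and 1.85 FPKM in the mutants, against 1.07 and 0.775 FPKM in the wild types, 1.90-fold by the means and higher in both mutants (log2 difference 0.52, standard error 0.180, unadjusted p = 0.0305, limma adjusted p = 0.994). Because Col11a2 passed the filter of 1 FPKM only through the mutants, these p-values are descriptions only. Col11a1 was at 8.50 and 5.64 FPKM in the mutants, against 8.50 and 7.17 FPKM in the wild types (log2 difference -0.15). Col11a1 over Col11a2 was therefore 5.09 and 3.05 in the mutants, against 7.92 and 9.26 in the wild types, lower in both mutants.

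Of the listed cartilage markers 6 had a row, with 3 positive and 3 negative log2 differences. Acan, Matn1 and Matn3 had no row and were not analysed here. The 6 summed to 59.0 and 49.3 FPKM in the mutants, against 49.3 and 57.5 FPKM in the wild types, with 1 higher and 2 lower without overlap and 0 at 0 FPKM. The 6 bone markers with a row summed to 24.3 and 32.8 FPKM in the mutants, against 20.1 and 19.6 FPKM in the wild types, with 2 higher and 0 lower without overlap, and the part of bone or cartilage in Col11a2 was not tested.

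**Figure D4:**
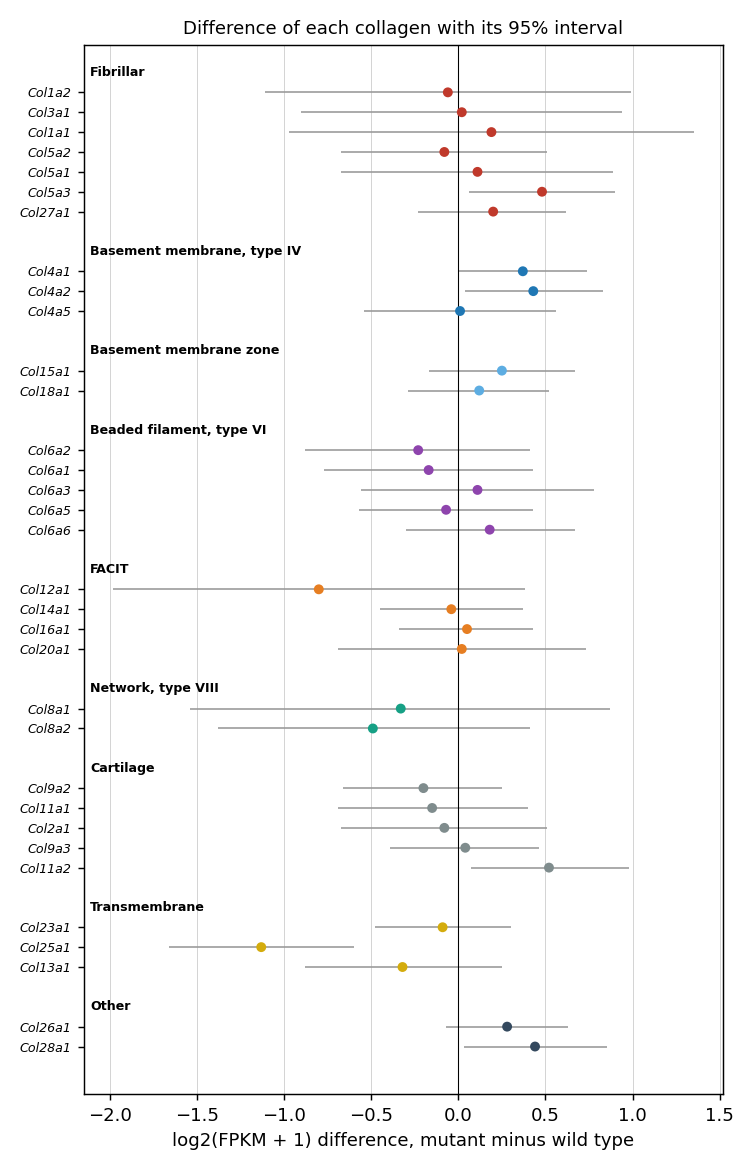
Difference of each collagen in log2(FPKM + 1) between mutant and wild type (positive where higher in mutants), as a point with its 95% interval from limma, grouped by structural class. The interval of Col25a1 lies wholly below 0, from -1.66 to -0.60. Those of Col4a2 (0.04 to 0.83), Col5a3 (0.06 to 0.90), Col11a2 (0.07 to 0.98) and Col28a1 (0.03 to 0.85) lie above 0. That of Col4a1 begins at 0.00 as rounded. The intervals are not adjusted for the number of genes. The widest are those of Col8a1, Col12a1 and Col1a1.

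Collagen chains are hydroxylated, folded, exported, trimmed and cross-linked by a shared set of proteins, and these genes were set beside them. Over all genes tested, 12.5% were higher and 19.6% were lower without overlap, the shares to set beside the counts below. Of 14 genes that modify prolines and lysines, 2 were higher and 2 were lower without overlap, and 0 reached an unadjusted p under 0.05, with a median log2 difference of 0.00. The cyclophilin gene Ppib was at 203 and 205 FPKM in the mutants, against 191 and 226 FPKM in the wild types. P4hb, the beta subunit of prolyl hydroxylase, was at 144 and 140 FPKM in the mutants, against 163 and 148 FPKM in the wild types.

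Of 12 folding and export genes, 0 were higher and 3 were lower without overlap (median -0.09), with 0 at an unadjusted p under 0.05. Serpinh1, which encodes the collagen chaperone HSP47, was at 247 and 230 FPKM in the mutants, against 288 and 202 FPKM in the wild types. The protein folding gene Pdia3, at 166 and 161 FPKM in the mutants, against 188 and 178 FPKM in the wild types, was among the lower ones.

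Of 9 genes of propeptide cleavage and fibre assembly, the fibronectin gene Fn1 was the single member at an unadjusted p under 0.05. It was at 94.5 and 48.4 FPKM in the mutants, against 194 and 118 FPKM in the wild types (log2 difference -1.15, limma adjusted p = 0.994). Sparc, whose product binds collagen, was at 1508 and 1601 FPKM in the mutants, against 1552 and 1385 FPKM in the wild types. Pcolce, the enhancer of C-propeptide cleavage, was at 254 and 173 FPKM in the mutants, against 275 and 221 FPKM in the wild types.

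Of 4 lysyl oxidase genes, which cross-link fibres, 1 was higher and 0 were lower without overlap (median 0.00). Lox was at 50.6 and 48.6 FPKM in the mutants, against 47.5 and 41.9 FPKM in the wild types, and Loxl1 at 28.9 and 20.6 FPKM in the mutants, against 32.7 and 19.7 FPKM in the wild types.

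Of 10 collagen receptor genes, 1 was higher and 3 were lower without overlap (median -0.05), with 0 at an unadjusted p under 0.05. The integrin beta 1 gene Itgb1 was at 111 and 102 FPKM in the mutants, against 124 and 113 FPKM in the wild types. Mrc2, a receptor that takes up collagen fragments, was at 29.2 and 16.8 FPKM in the mutants, against 41.0 and 24.0 FPKM in the wild types, with overlap.

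Of 11 proteases and inhibitors of collagen turnover, 1 was higher and 2 were lower without overlap (median -0.04). Mmp15, a membrane-bound metalloproteinase, was at 24.2 and 34.3 FPKM in the mutants, against 20.1 and 18.7 FPKM in the wild types (log2 difference 0.55, unadjusted p = 0.0407, limma adjusted p = 0.994). The inhibitor gene Timp2 was at 305 and 254 FPKM in the mutants, against 297 and 276 FPKM in the wild types, and Timp3 at 181 and 165 FPKM in the mutants, against 197 and 232 FPKM in the wild types.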

How the data were processed

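RNA sequencing libraries of 2 mutant and 2 wild type samples were compared, grouped by their titles. The authors deposited FPKM for 14405 genes. A second table, of 150 genes, gives the authors' group FPKM, log2 fold change, p-value, q-value and a test statistic (a score, not used), per the file headers. The submitters' processing notes name CASAVA, TopHat2 (2.1.2), Cufflinks (2.2.1) and mm10. No source used here gives their settings, the library scaling or the strandedness. FPKM totals ran from 620018 to 686830, and without counts no counting interval can be given.

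Values were moved to log2(FPKM + 1) and fitted with limma 3.58.1 in R 4.3.3, using a trended variance prior. Genes entered if either group averaged 1 FPKM or more, which left 14040 genes with all 33 collagens. The Benjamini-Hochberg threshold was 0.05. Residual degrees of freedom were 2, to which the prior added 3.44. The code was checked on simulated data. The collagens, classes, lists and naming rule were chosen with earlier results of these data known. Members are all accounted for. From each pathway list the text names the 2 most abundant genes and any at an unadjusted p under 0.05, apart from 1 gene that is not reported here. Class and list medians, summed FPKM and chain ratios are descriptions. Gene coordinates come from GENCODE M21 (GRCm38, the assembly of mm10) and sequences from RefSeq on GRCm38.p6. Alternatives were another pseudocount (0.1), other filters, scalings and variance prior, a replicate block and each sample left out.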

Additional observations from a re-analysis of the deposited data

How the results depend on the processing

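In all 12 settings, 0 collagens passed the adjusted threshold. With limma the unadjusted p was under 0.05 in 5 higher and 1 lower collagens. The higher count was 4 with a pseudocount of 0.1, no filter, a minimum of 5 FPKM or one variance prior. The lower count was 0 with a minimum of 5 FPKM, which drops Col25a1, and the lower count without overlap was then 0 too. With a replicate block the lower count was 4. Same-numbered samples deviated together (r = 0.481 over genes, 0.541 over collagens, both across genes of 1 pair of samples), but the labels do not pair them, and the block gave 61 calls over all genes, against 0 without it. A pseudocount of 0.1 gave a transmembrane median of -0.61, against -0.32, and turned Col20a1 to -0.03. Quantile normalization turned Col3a1 to -0.09.

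With each sample left out in turn, the higher count at an unadjusted p under 0.05 ran from 0 to 2 and the lower from 1 to 3. Counts without overlap ran from 8 to 17 higher and from 3 to 15 lower, since a lone sample overlaps less easily; the fit assumes that it varies like the other group. The family's median ran from -0.18 to 0.24 and the fibrillar median from -0.29 to 0.41. The log2 difference changed sign within these ranges: Col1a1 -0.38 to 0.76, Col1a2 -0.51 to 0.40, Col3a1 -0.37 to 0.41, Col5a1 -0.27 to 0.49, Col5a2 -0.31 to 0.15, Col4a5 -0.20 to 0.22, Col18a1 -0.01 to 0.24, Col6a1 -0.40 to 0.05, Col6a2 -0.53 to 0.06, Col6a3 -0.18 to 0.40, Col6a5 -0.22 to 0.08, Col8a1 -0.92 to 0.25, Col14a1 -0.18 to 0.11, Col16a1 -0.05 to 0.14, Col20a1 -0.07 to 0.38, Col2a1 -0.39 to 0.23, Col9a3 -0.06 to 0.13, Col11a1 -0.41 to 0.11 and Col23a1 -0.20 to 0.03. Col25a1 ran from -1.36 to -0.90 and its limma adjusted p over all alternatives from 0.119 to 0.877. Without counts, the precision of chains near 1 FPKM is unknown.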
